A study of Mus musculus with 4 samples.

Results

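The genes described here are the lactate dehydrogenase subunits Ldha, Ldhb, Ldhc and Ldhal6b, the lactate transporters Slc16a1, Slc16a3 and Slc16a7, and the transporters' partner proteins Bsg and Emb. They were picked by gene symbol from a fixed list, and all 9 were found among the 25170 symbols of the deposited tables. RNA sequencing of polyadenylated RNA was available for 4 libraries of mouse embryonic stem cells grown in serum with LIF on gelatin, 1 per group. The groups were wild type cells of the E14 line (WT), genetically wild type cells given a treatment labelled SO, which the series text calls an inhibitor (SO), cells with a knockout of Ldha (Ldha_KO) and cells with a knockout of Ldhb (Ldhb_KO). The sources used here do not give the dose and duration of SO, the edit made in each knockout or the number of clones behind it. The series relates Ldha to lactylation of Hdac1 and to the 2-cell state, a programme of the early embryo that some cultured stem cells enter. Each group being a single library, no replicate spread was available, so no value has an error and no difference has a p-value, and each comparison is between libraries.

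Lactate dehydrogenase interconverts pyruvate and lactate, with NADH as the electron carrier, and works as a tetramer of A and B subunits. The A subunit, from Ldha, is the main form of glycolytic cells, and the B subunit, from Ldhb, is the main form of heart muscle. Lactate crosses the plasma membrane through proton-linked monocarboxylate transporters, which need a partner glycoprotein, basigin or embigin, to reach the cell surface. Mouse embryonic stem cells are strongly glycolytic and release lactate, which is also the source of the lysine mark called lactylation.

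The deposited values were read as FPKM, fragments scaled by transcript length and library depth, a reading that rests on the values alone. On that reading, levels can be set side by side between genes as well as between libraries. Differences are on the log2(FPKM + 1) scale, which understates the change of genes with low values. A gene was called higher or lower where the difference reached 1, which is 2-fold in FPKM + 1 and is named the 2-fold rule here. Genes with low values can differ by more than 2-fold in FPKM without a call. Calls were made over the 13142 genes with at least 1 FPKM in at least 1 library. Of the 9 genes, 8 passed this filter. Slc16a7 did not, and Ldhal6b passed it only through SO. Summed levels ran from 471595 in SO to 526316 in WT, and 11952 to 12577 genes reached 1 FPKM. The knockout libraries stood apart from WT and SO in 1 technical respect: among genes with equal reads in both libraries, the value of 1 read relative to WT spread over 0.0167% in SO but 0.577% in Ldha_KO and 0.431% in Ldhb_KO (10th to 90th percentile). The part of this in the differences of the knockouts from WT was not tested. Pluripotency markers were present in every library, all 8 at 124 or more. Markers of other cell types that express these genes were examined too. Of 10 meiotic or spermatid markers, 9 stayed below 1 FPKM and 5, among them Prm1, Prm2, Tnp1 and Pgk2, were listed at 0 everywhere. Of 10 fibroblast markers, Lum and Dcn were listed at 0 and 7 stayed below 1, and Thy1, at 36.9 to 47.4, held most of the summed level, which ran from 42.7 to 52.9. Pdgfrb, another of them, was at 0.949 in WT and 3.35, 2.80 and 3.63 in SO, Ldha_KO and Ldhb_KO, and its part in the results was not tested. The 6 muscle markers summed to 5.46 to 9.07, with the highest sum in Ldha_KO, and the 5 erythroid markers to 0.388 to 2.11, with the highest sum in SO and both beta globin genes listed at 0.

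**Figure D1:**
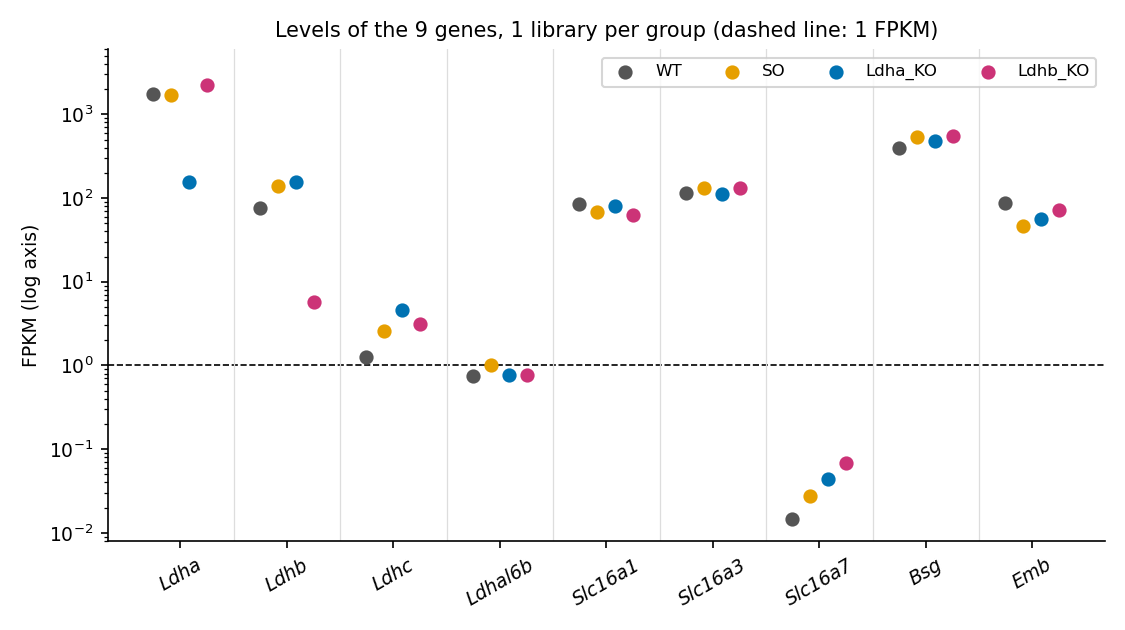
Level of each gene (FPKM, log axis) in the WT, SO, Ldha_KO and Ldhb_KO libraries; each point is 1 library and the dashed line is the filter of 1 FPKM. Ldha and Ldhb each drop only in their own knockout, to 154 and 5.74, while the transporters and their partners stay within 1.87-fold from the lowest to the highest library, apart from Slc16a7, which lies below 0.1 throughout.

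Ldha, the A subunit, was at 1774 in WT, 1711 with SO, 154 in Ldha_KO and 2237 in Ldhb_KO. It was the 23rd, 16th and 15th most abundant transcript in WT, SO and Ldhb_KO, and the 501st in Ldha_KO. The Ldha_KO library stood alone at the low end, 11.5-fold below WT, and the other libraries lay close together. Its difference of -3.52 was the lowest of all 13142 genes in that comparison, and 8.67% of the WT level remained. Fewer cells carrying the transcript and less of it in each cell cannot be told apart in bulk RNA, and transcripts of an edited allele would be counted here too. In Ldhb_KO the difference from WT was 0.33, within the range that held the middle 90% of all kept genes (-0.67 to 0.89). As high or higher lay 23.4% of kept genes, and 8.08% of the 4516 genes with a mean of at least 20 FPKM. In SO the difference was -0.05, a direction that turned to 0.11 when every library was scaled to the total of WT.

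Ldhb, the B subunit, was at 76.5 in WT, 139 with SO, 158 in Ldha_KO and 5.74 in Ldhb_KO. Ldhb_KO stood alone at the low end, 13.3-fold below WT, and its difference of -3.52 was again the lowest of all kept genes. SO and Ldha_KO both lay above WT, by 0.86 and 1.03. Only the second reached the 2-fold rule, at 2.06-fold, and differences at least as high were found for 3.84% of kept genes in SO and 2.44% in Ldha_KO. The SO difference was 1.02 when every library was scaled to the total of WT, with or without these genes in the total. Rescaled by the median ratio it was 0.92, below the rule. The muscle markers summed to 5.46 in WT, 5.74 with SO, 9.07 in Ldha_KO and 6.47 in Ldhb_KO, and their part in the level of Ldhb was not tested.

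The promoters of Ldha and Ldhb are shown because these genes stood at such different levels in WT, and that of Ldhc because it lies beside Ldha and was called higher in the Ldha knockout. Each line gives the 250 bases before a RefSeq start site in build GRCm38.p6, on the gene's own strand, and the first listed site was taken where RefSeq has 2, as for Ldha and Ldhc: chr7:46845554-46845803 on the plus strand for Ldha, chr6:142507958-142508207 on the minus strand for Ldhb and chr7:46861013-46861262 on the plus strand for Ldhc. Capitals mark ACGTG or GCGTG on either strand, the core bound by hypoxia-inducible factors.
Ldha: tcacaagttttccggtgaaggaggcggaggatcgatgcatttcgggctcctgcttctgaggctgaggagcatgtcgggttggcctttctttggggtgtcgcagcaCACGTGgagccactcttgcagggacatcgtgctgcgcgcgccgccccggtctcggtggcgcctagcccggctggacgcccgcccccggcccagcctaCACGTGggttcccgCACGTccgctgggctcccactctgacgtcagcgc
Ldhb: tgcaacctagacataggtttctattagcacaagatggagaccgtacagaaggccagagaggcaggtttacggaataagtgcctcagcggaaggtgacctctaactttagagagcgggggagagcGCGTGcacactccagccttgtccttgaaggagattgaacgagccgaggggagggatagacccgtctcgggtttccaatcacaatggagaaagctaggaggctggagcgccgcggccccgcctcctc
Ldhc: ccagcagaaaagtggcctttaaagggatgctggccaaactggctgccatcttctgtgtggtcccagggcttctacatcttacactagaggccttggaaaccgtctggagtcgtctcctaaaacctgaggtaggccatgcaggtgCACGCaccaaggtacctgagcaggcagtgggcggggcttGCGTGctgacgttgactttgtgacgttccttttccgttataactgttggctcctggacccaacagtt
The Ldha window held 5 matches, of which 4 came from 2 copies of CACGTG, the E-box bound by Myc and related factors, since that motif reads as ACGTG on both strands. The Ldhb window held 1 match and the Ldhc window 2, and neither held CACGTG. Of all 32851 promoter windows of this length, 38.6% held ACGTG or GCGTG and 6.02% held CACGTG. These windows held 25 CpG dinucleotides for Ldha, 14 for Ldhb and 8 for Ldhc, against a median of 6. The second windows were poorer: that of Ldha, chr7:46846832-46847081, held 1 match, no CACGTG and 9 CpG, and that of Ldhc no match and 3 CpG, so the contrast of Ldha with Ldhb holds for the first Ldha window alone. A match is a description of the sequence and says nothing of binding in these cells.

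The summed level of Ldha and Ldhb was 1851 in WT, 1850 with SO, 311 in Ldha_KO and 2243 in Ldhb_KO. The Ldha_KO library thus held 16.8% of the WT sum and the Ldhb_KO library 121%. The share of Ldhb in the sum was 4.13% in WT, 7.54% with SO, 50.6% in Ldha_KO and 0.256% in Ldhb_KO, so that the subunit transcripts were about equal in the Ldha knockout only. In Ldha_KO the gain of 81.0 FPKM in Ldhb came to 5.00% of the 1621 FPKM missing from Ldha. In SO the gain of 63.0 in Ldhb was close to the 63.5 missing from Ldha, and that match depends on the scaling, under which Ldha changed direction. In Ldhb_KO, Ldhb was 70.7 below WT and Ldha 462 above it.

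**Figure D2:**
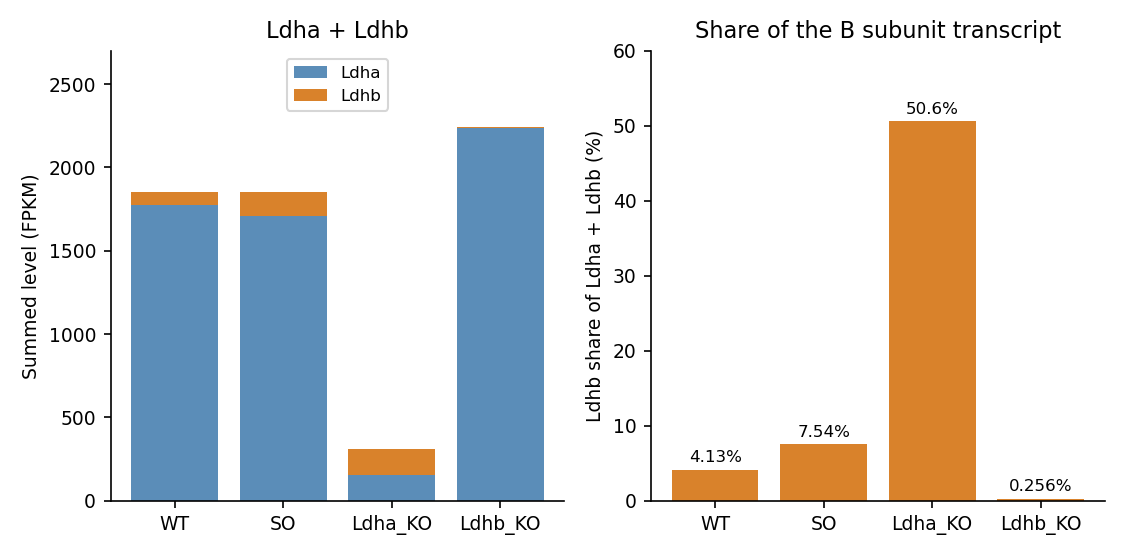
Left, stacked bars of the level of Ldha and Ldhb (FPKM, linear axis from 0) in each library; right, the share of Ldhb in their sum (%). The sum is 311 in Ldha_KO against 1850 to 2243 elsewhere, and the share of Ldhb is 50.6% there against at most 7.54%.

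Ldhc encodes the subunit of sperm and spermatocytes. It was at 1.24 in WT, 2.58 with SO, 4.60 in Ldha_KO and 3.11 in Ldhb_KO, so WT was the lowest of the 4 libraries and Ldha_KO the highest. The difference from WT was 1.32 in Ldha_KO, which was called, and 0.67 in SO and 0.87 in Ldhb_KO, which were not. With a pseudocount of 0.1, which shrinks low genes less, these values were 1.81, 0.99 and 1.25, and the last then passed the rule. The meiotic or spermatid markers summed to 2.60, 2.78, 3.72 and 2.09 in the same order of libraries, nearly all of it from Sycp1, a synaptonemal complex gene, and their part in the level of Ldhc was not tested. Even at its highest, Ldhc stood at 4.60 against 154 for what remained of Ldha in the same library.

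Ldhal6b, a lactate dehydrogenase-like gene also known from testis, was at 0.754 in WT, 1.02 with SO, 0.759 in Ldha_KO and 0.777 in Ldhb_KO. These levels stood in the same proportion, to within 0.250%, as 12, 17, 12 and 13 reads, or a multiple of them, once the value of 1 read in each library was allowed for. WT numbers up to 30 were tried at a tolerance of 0.3%, and other whole numbers may fit as well. The value of 1 read also spread over 0.577% in Ldha_KO and 0.431% in Ldhb_KO, wider than that tolerance. The proportion therefore cannot settle the number of reads, and the level in each library may rest on few.

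Ldha and Ldhc are neighbours on chromosome 7 in the RefSeq order of GRCm38.p6, so the kept genes around each knocked-out gene were examined, a choice made after the level of Ldhc was known. Around Ldha these were Saa2, Hps5 and Gtf2h1 on one side and Ldhc, Tsg101 and Uevld on the other. Of these 6, Ldhc alone was called in Ldha_KO. Gtf2h1, a subunit of transcription factor TFIIH, was at 73.6 in WT, 55.3 with SO, 64.9 in Ldha_KO and 63.9 in Ldhb_KO. Tsg101, of the ESCRT sorting machinery, was at 41.2, 37.8, 32.9 and 35.7, a difference of -0.31 in Ldha_KO. Saa2, a serum amyloid gene, passed the filter only in Ldha_KO, at 1.11 against 0.217 in WT. Around Ldhb, none of Pyroxd1, Recql, Golt1b, Cmas, St8sia1 and C2cd5 was called in Ldhb_KO, where the differences ran from -0.37 for Golt1b to 0.01 for Cmas and C2cd5.

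**Figure D3:**
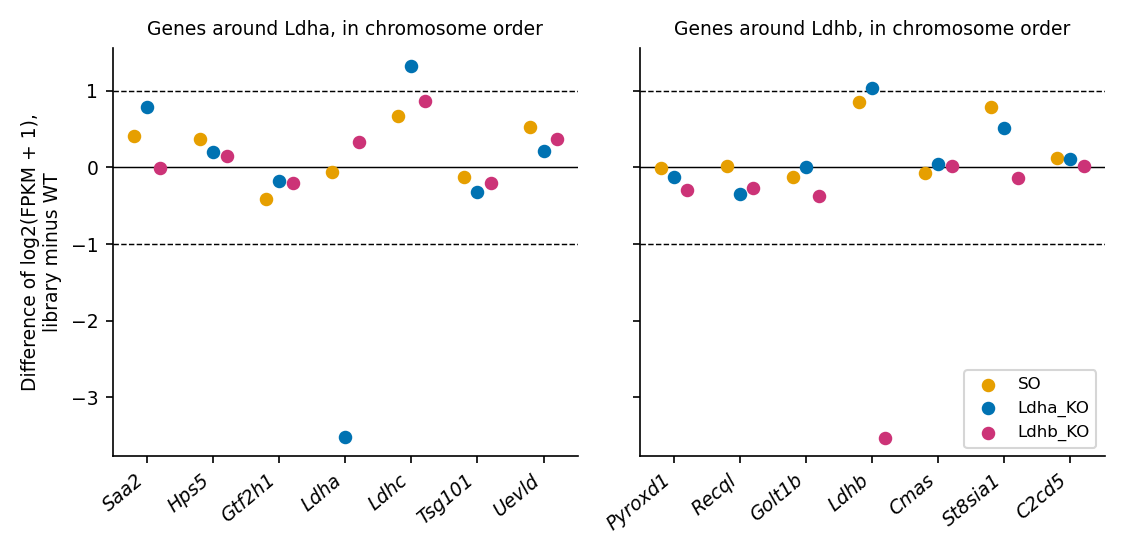
Difference of log2(FPKM + 1) from WT for the 3 kept genes on either side of Ldha (left) and Ldhb (right), in chromosome order; points are the SO, Ldha_KO and Ldhb_KO libraries and dashed lines the 2-fold rule. Each targeted gene is at -3.52 in its own knockout, and the points past the rule on the high side are Ldhc at 1.32 and Ldhb at 1.03, both in Ldha_KO.

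Slc16a1, the transporter MCT1, was at 85.5 in WT, 67.9 with SO, 81.4 in Ldha_KO and 62.1 in Ldhb_KO. WT and Ldha_KO were the higher pair of libraries and SO and Ldhb_KO the lower pair. The differences from WT were -0.33 with SO, -0.07 in Ldha_KO and -0.46 in Ldhb_KO, and none was called. Among all kept genes 17.0%, 45.7% and 13.0% lay as low or lower in these comparisons. Slc16a3, the transporter MCT4 known for lactate export from glycolytic cells, was higher in the libraries where Slc16a1 was lower, at 115 in WT, 131 with SO, 112 in Ldha_KO and 132 in Ldhb_KO, with differences of 0.18, -0.04 and 0.20. As high or higher lay 27.8% of kept genes in SO and 31.7% in Ldhb_KO. Scaling to the total of WT turned the small Ldha_KO differences of both genes upwards, to 0.07 and 0.10. Slc16a7, the transporter MCT2, was at 0.0145 in WT, 0.0278 with SO, 0.0437 in Ldha_KO and 0.0689 in Ldhb_KO. These levels stood, within 0.162%, in the proportion of 1, 2, 3 and 5 reads, or a multiple of them, and their order carries no weight.

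The summed level of the 3 transporters moved little, at 200.8 in WT, 199 with SO, 193 in Ldha_KO and 195 in Ldhb_KO. Its composition moved more, through differences of each gene that were common in size among kept genes, as given above. Slc16a1 made up 42.6% of the sum in WT and 42.2% in Ldha_KO, and 34.2% in SO and 31.9% in Ldhb_KO. The ratio of Slc16a3 to Slc16a1, which no scaling of a library can change, was 1.35 in WT, 1.92 with SO, 1.37 in Ldha_KO and 2.13 in Ldhb_KO.

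The promoters of both transporters are given because their levels moved in opposite ways in SO and Ldhb_KO, though by amounts common among kept genes. They are in the same form as above, for chr3:104638414-104638663 (Slc16a1) and chr11:120948817-120949066 (Slc16a3), both on the plus strand of GRCm38.p6.
Slc16a1: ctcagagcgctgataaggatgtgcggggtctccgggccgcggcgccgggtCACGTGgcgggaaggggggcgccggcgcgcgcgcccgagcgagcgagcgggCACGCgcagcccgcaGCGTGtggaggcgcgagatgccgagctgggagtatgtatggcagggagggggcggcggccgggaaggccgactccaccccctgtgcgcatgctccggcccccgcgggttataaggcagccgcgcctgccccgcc
Slc16a3: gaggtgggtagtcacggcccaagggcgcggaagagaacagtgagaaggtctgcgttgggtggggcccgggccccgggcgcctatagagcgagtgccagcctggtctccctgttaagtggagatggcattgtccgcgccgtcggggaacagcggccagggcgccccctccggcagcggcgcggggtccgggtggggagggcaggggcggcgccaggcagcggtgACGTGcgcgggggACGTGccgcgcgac
Slc16a1 held 4 matches of ACGTG or GCGTG, 2 of them from 1 copy of CACGTG, and Slc16a3 held 2, with no CACGTG. Both windows were rich in CpG, with 37 and 29. The window of Emb held no match.

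Bsg encodes basigin, the partner of MCT1 and MCT4. It was the most abundant of the transport genes, at 395 in WT, 530 with SO, 475 in Ldha_KO and 547 in Ldhb_KO. WT was the lowest library, and the differences were 0.42, 0.26 and 0.47, none called. Among the 4516 genes with a mean of at least 20 FPKM, 4.61%, 9.17% and 5.03% lay as high or higher in these comparisons, and among all kept genes 13.6%, 23.1% and 17.0% did. Emb, which encodes embigin, went the other way, at 86.2 in WT, 46.2 with SO, 56.6 in Ldha_KO and 71.4 in Ldhb_KO. WT was its highest library, and the differences were -0.89, -0.60 and -0.27, none called. In SO the level of Emb was 53.6% of that in WT, and 0.769% of kept genes lay as low or lower. The ratio of Bsg to Emb was 4.58 in WT, 11.5 with SO, 8.39 in Ldha_KO and 7.67 in Ldhb_KO. These comparisons share the WT library, so its own deviation enters all of them alike. The 5 erythroid markers, from a cell type rich in basigin, summed to 0.388 in WT, 2.11 with SO, 0.754 in Ldha_KO and 0.917 in Ldhb_KO, with the beta globin genes listed at 0.

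**Figure D4:**
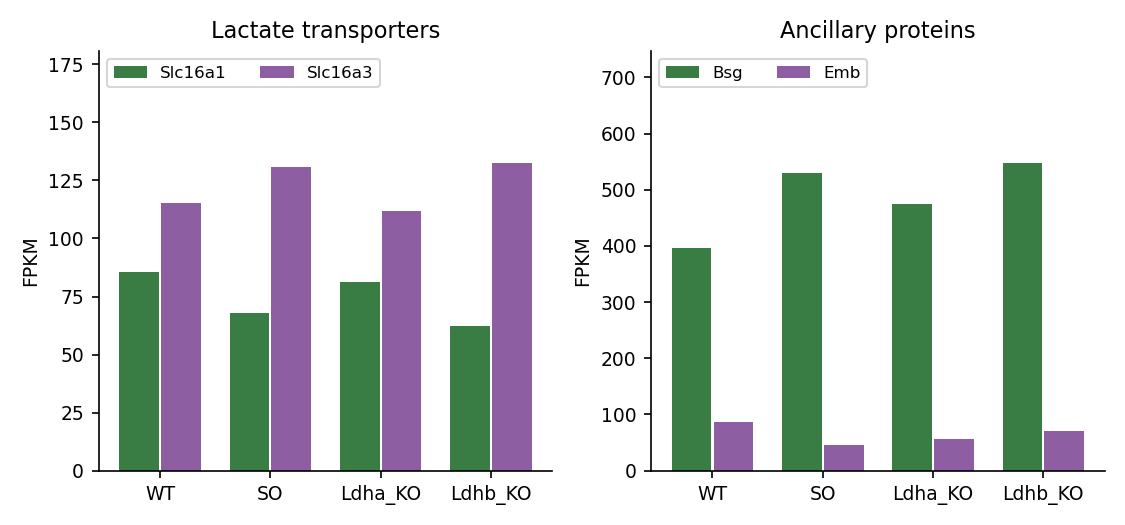
Level (FPKM, linear axes from 0) of the lactate transporters Slc16a1 and Slc16a3 (left) and of the partner proteins Bsg and Emb (right) in the 4 libraries, 1 bar per library. Slc16a1 is lower and Slc16a3 higher in SO and Ldhb_KO than in WT and Ldha_KO, and WT has the least Bsg and the most Emb.

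By the 2-fold rule, none of the 8 kept genes was called in SO against WT, where 2.69% of all kept genes were higher and 0.472% lower. In Ldha_KO 2 were higher, Ldhb and Ldhc, against a background of 2.65%, and 1 lower, Ldha itself, against 1.06%. In Ldhb_KO 1 was lower, Ldhb itself, against 1.09%, and 0 were higher, against 3.36%. Between the knockouts Ldhb was higher in Ldha_KO (background 1.67%) and Ldha lower (1.54%), which mostly restates the 2 edits, and no other member was called. The difference of 4.56 for Ldhb also holds its 1.03 above WT in Ldha_KO. That of -3.85 for Ldha also holds its 0.33 above WT in Ldhb_KO. The median difference of the 8 was 0.19 with SO, -0.02 in Ldha_KO and 0.11 in Ldhb_KO, beside -0.04, -0.03 and -0.02 for all kept genes. Genes with a mean of at least 20 FPKM had lower medians, -0.17, -0.14 and -0.18. Against these, the offset of Bsg grew to 0.59, 0.41 and 0.65, and that of Emb shrank to -0.72, -0.46 and -0.09.

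**Figure D5:**
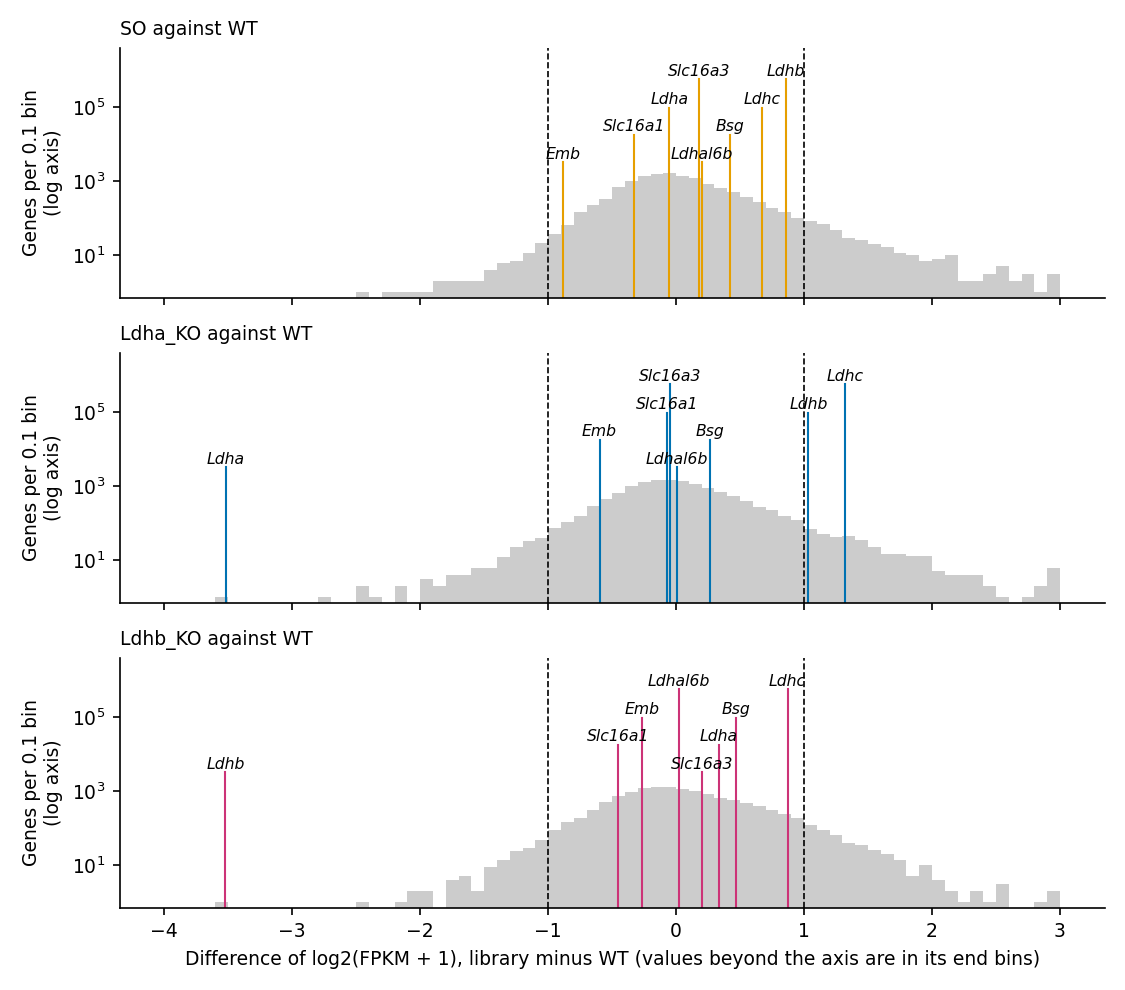
Number of kept genes (log axis, bins of 0.1) at each difference of log2(FPKM + 1) from WT, in grey, for SO, Ldha_KO and Ldhb_KO, with the 8 kept members marked by lines and dashed lines at the 2-fold rule. Ldha in Ldha_KO and Ldhb in Ldhb_KO lie at the low end of all genes, both at -3.52, Ldhb and Ldhc lie past the rule on the high side in Ldha_KO, and the transport genes lie inside it in every comparison.

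The genes whose differences were most like those of Ldhb in SO and Ldha_KO, over 3 libraries, were C130074G19Rik, Slc2a3 and Ddias, at root mean square distances of 0.04, 0.04 and 0.05 among 9770 genes. Slc2a3, the glucose transporter GLUT3, was at 303 in WT, 544 with SO, 646 in Ldha_KO and 663 in Ldhb_KO. Those most like Ldhc, over 4 libraries, were Gm45916, Creg1 and Abca3, at distances of 0.06, 0.07 and 0.09. Abca3, a lipid transporter, was at 1.77 in WT, 3.05 with SO, 5.85 in Ldha_KO and 4.46 in Ldhb_KO. With so few libraries many genes can share a pattern, and the distances only describe these.

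Other genes around lactate and pyruvate were taken from 6 lists of 79 genes, of which 69 were kept. Between the knockouts 1 of the 69 was higher in Ldha_KO and 4 lower, beside 1.67% and 1.54% of all kept genes. Against WT, 1 was higher and 0 lower in SO, 1 and 0 in Ldha_KO, and 4 and 1 in Ldhb_KO. Over all kept genes the shares were 2.69% higher and 0.472% lower in SO, 2.65% and 1.06% in Ldha_KO, and 3.36% and 1.09% in Ldhb_KO, so nothing is read from these small counts. The list of 14 other monocarboxylate carriers and partners had 7 kept members and no calls against WT. Slc16a6 was at 7.46 in WT, 6.39 with SO, 11.8 in Ldha_KO and 12.2 in Ldhb_KO, and Nptn, which encodes the basigin relative neuroplastin, at 66.3, 70.3, 74.3 and 60.8. The 6 kept genes of the other lactate and malate dehydrogenases had no calls. Ldhd, which oxidises D-lactate, was at 0.816, 0.807, 0.990 and 1.18, and the malate dehydrogenases Mdh1 and Mdh2 were at 95.5 to 100.0 and at 365 to 475 across the libraries.

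All 19 glucose uptake and glycolysis genes were kept. Against WT, 1 was higher with SO, 1 in Ldha_KO and 3 in Ldhb_KO, none was lower, and the medians were 0.39, 0.18 and 0.52. Over all kept genes 2.69%, 2.65% and 3.36% were higher, and the medians were -0.04, -0.03 and -0.02. The genes called were Aldoc, a minor aldolase (6.41 in WT, 15.1 with SO, 9.40 in Ldha_KO and 23.3 in Ldhb_KO), Slc2a3, and Slc2a1, the glucose transporter GLUT1 (307, 502, 393 and 690). All 19 lay above WT in Ldhb_KO, the library where Ldha was also highest. The median of all kept genes there was slightly below WT, at -0.02. Gapdh, 1 of the 19, shares most of its sequence with other genes. Between the knockouts, Aldoc, Hk2 and Eno2 were lower in Ldha_KO, 3 of the 19, and 0 were higher. Over all kept genes 1.54% were lower and 1.67% higher in that comparison. Hk2, a hexokinase, was at 30.3 in Ldha_KO and 70.3 in Ldhb_KO, and Eno2 at 3.27 and 7.64.

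Of 16 genes of mitochondrial pyruvate use, Gpt2, the mitochondrial alanine transaminase, was called. It was at 18.0 in WT, 11.7 with SO, 10.8 in Ldha_KO and 37.8 in Ldhb_KO, higher than WT in Ldhb_KO and lower in Ldha_KO than in Ldhb_KO. The mitochondrial pyruvate carrier genes Mpc1 and Mpc2 were at 2.14 to 3.60 and 11.8 to 15.8. None of 7 kept redox shuttle genes was called, and their medians were -0.32 in SO, -0.32 in Ldha_KO and -0.29 in Ldhb_KO, with 5, 7 and 6 of the 7 below WT. The medians of all kept genes were -0.04, -0.03 and -0.02. Genes with a mean of at least 20 FPKM, which not all of the 7 reach, had medians of -0.17, -0.14 and -0.18. How far the lowering was general was not tested. Of 14 enzymes linked to lysine lactylation, Sirt1, a deacylase, was called lower in Ldhb_KO than in WT. It was at 28.0 in Ldhb_KO against 66.7 in WT, 50.4 in SO and 62.4 in Ldha_KO. Sirt1 was also called higher in Ldha_KO than in Ldhb_KO, with a difference of 1.13. Over all kept genes, 3.36% were called higher and 1.09% lower in Ldhb_KO against WT. In Ldha_KO against Ldhb_KO, 1.67% were called higher and 1.54% lower. Nothing is read from the calls of Gpt2 and Sirt1 beside these shares.

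Some of these transcripts share sequence with other genes, and how such reads were assigned is not stated in the labels. Of the 50-base words of the Ldha transcript Ldha-202 in GENCODE M21, 19.1% also occur in transcripts of 14 other genes, all processed pseudogenes, of which 1 is in the deposited tables. For Ldhb-201 the share was 27.0%, all with the pseudogene Gm5514. For Emb it was 22.2%, with Gm17509, and every word of Ldhal6b also occurs in Gm29050, annotated as antisense. Both strands of each transcript were searched. Ldhc, Slc16a1, Slc16a3, Slc16a7 and Bsg shared none. Gapdh, a glycolytic gene with 90.4% of its words shared among 222 other genes, was listed at only 9.06 to 11.3, next to 1520 to 2253 for Aldoa. Levels of Ldhal6b, Ldha, Ldhb and Emb, and the remainders of Ldha in Ldha_KO and of Ldhb in Ldhb_KO, are uncertain for this reason. The share of words does not give the size of that uncertainty, and the part of shared reads was not tested.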

How the data were processed

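Levels came from 4 tables, 1 per library, with 1 value for each of 25170 gene symbols. The deposited values were read as FPKM made by the authors. This reading rests on the values: they have decimals, their totals differ by library and their low values rise in steps whose size is particular to each gene. RPKM could not be told apart. The submitters' processing notes name build mm9 and edgeR 3.26.8, HTSeq 0.11.2, SAMtools 1.9 and Bowtie2 2.3.4.3. The sources used here do not give the role of each, the annotation or the depth in reads.

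The members and lists were chosen with earlier results of these data known. Samples were grouped by their treatment label. Differences of log2(FPKM + 1) were computed with Python 3.11.15 and pandas 2.3.3 for genes with at least 1 in at least 1 library, and called at a size of 1. The code was checked on copies of the WT values without noise, with chosen genes changed past the rule. Recovery was fixed in advance there, so the check says nothing of false calls between single libraries. Named beside the members were list genes called in any of 4 comparisons, Slc16a6, Ldhd, Mdh1, Mdh2, Mpc1, Mpc2 and Nptn, and the 3 genes most like each member called outside its own knockout; others were chosen after their values were seen. Alternatives were a pseudocount of 0.1, no filter, a filter of 5, and 3 rescalings.

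Relative depth came from genes below 0.2 in both libraries. Relative to WT, the value of 1 read was 0.956 for SO, 1.00 for Ldha_KO and 0.951 for Ldhb_KO, and 72.6%, 60.9% and 66.9% of ratios lay within 0.2% of a ratio of whole reads. Promoters are from RefSeq, GRCm38.p6, which held 7 of the 9 genes, and transcripts from GENCODE M21. Coordinates are given for RefSeq promoter windows alone, in that build, which differs from the authors'.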

Additional observations from a re-analysis of the deposited data

Results flagged for a closer look

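Genes of the lists that lay at least 0.5 above WT in one library and at least 0.5 below it in another, on the log2(FPKM + 1) scale, were Gpt2, Hk2 and Aars. Gpt2 was at 1.03 in Ldhb_KO and -0.69 in Ldha_KO. Hk2 was at 0.52 in Ldhb_KO and -0.67 in Ldha_KO. Aars, the alanyl-tRNA synthetase also described as a lactyltransferase, was at 0.75 in Ldhb_KO and -0.63 in SO, with levels of 143 in WT, 92.0 with SO, 158 in Ldha_KO and 241 in Ldhb_KO. These opposite directions rest on 1 library each and the differences between libraries were not tested. No member did so outside its own knockout.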

How the results depend on the processing

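Of the 32 differences of single members, 29 kept their direction under every alternative run. The exceptions were Ldha in SO (-0.05, up to 0.11) and Slc16a1 and Slc16a3 in Ldha_KO (-0.07 and -0.04, up to 0.07 and 0.10), each turned by rescaling. Scaling each library to the total of WT shifted the median of all kept genes by 0.14 with SO, 0.12 in Ldha_KO and 0.10 in Ldhb_KO. Under it, and with the members left out of the total, 1 member was higher in SO, Ldhb at 1.02 in both, where 0 were as deposited. Rescaled by the median ratio, Ldhb in SO was at 0.92 and 0 members were higher. With a pseudocount of 0.1, 1 member was higher in Ldhb_KO, Ldhc at 1.25. With a filter of 5, 1 member was higher in Ldha_KO in place of 2, since Ldhc was no longer among the genes tested. Of the list genes, those higher in SO numbered 1 as reported, 3 with a pseudocount of 0.1, 2 when scaled to the total of WT and 3 when the members were left out of that total. With a pseudocount of 0.1 they numbered 3 in place of 1 in Ldha_KO against WT, 9 in place of 4 in Ldhb_KO against WT (6 under each of the 3 rescalings), and 2 in place of 1 in Ldha_KO against Ldhb_KO. The calls of Ldha and Ldhb in their own knockouts held in all alternatives, at -3.53 to -3.38 and -3.71 to -3.42, and that of Ldhb in Ldha_KO at 1.03 to 1.17. No paired analysis was possible because each group has 1 library. No library could be left out for the same reason.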
